A study of Mus musculus with 15 samples.

Results

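The hippocampal transcriptome of old wild-type (WT) mice was described in 4 of the 15 mice of the series, the WT mice that received vehicle only. The members were taken from the sample titles (WT, replicates 1 to 4) and not from any measured value, and the mice are numbered 1 to 4 accordingly. These females (genotype label Tg2576 -/-) were transgene-negative littermates of Tg2576 mice, a line that carries human APP with the Swedish mutation under a prion protein promoter, and were 18 to 20 months old. They were given sesame oil, the vehicle, by daily intragastric administration for 5 weeks, and RNA from the hippocampus was sequenced in bulk, 1 library a mouse. The other 11 mice, 4 WT and 3 Tg2576 on docosahexaenoic acid (DHA, an omega-3 fatty acid, 450 mg/kg) and 4 Tg2576 on vehicle, had the same age and sex. They were used only to give the level of a gene elsewhere in the series or its spread within a group, and no group was compared with another. The genetic background of the line is not given in the sources used here.

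The hippocampus is a cortical structure needed to form memories of events and places. Its principal cells are glutamatergic neurons, the granule cells of the dentate gyrus and the pyramidal cells of fields CA1, CA2 and CA3, and they work among GABAergic interneurons, astrocytes, oligodendrocytes, microglia and vessels. It borders the ventricle, where the choroid plexus makes cerebrospinal fluid and ciliated ependyma lines the wall, so that bulk tissue can hold RNA of these too.

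Levels between genes are given as TPM, a scale on which the count is divided by the exon length of the gene and all genes of a mouse sum to 1000000. Spread between mice is given as the SD over the 4 mice of log2 CPM, the count scaled by the reads of the mouse and not by length, for 14369 genes with a mean count of 50 or more and a mean TPM of 1 or more. Between 21538455 and 46596489 reads were counted to genes in each mouse. The 6 pairs of mice correlated over 18707 genes with a Pearson r of 0.960 to 0.974 on log2(TPM + 1), a correlation across genes, which are not independent replicates. Their counts differed beyond the sampling noise of independent reads in each pair, with a chi-square of 18.5 to 35.0 per degree of freedom. No library therefore appeared as a copy of another. Transcripts of 4 Y-linked genes summed to at most 0.0175 TPM, and Xist, the RNA that silences an X chromosome in females, lay between 150 and 184 TPM.

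A mean TPM of 1 or more was reached by 18707 genes, 14093 of them protein coding, and 16361 genes reached it in each of the 4 mice. A mean of 10 was reached by 10363 genes, a mean of 100 by 1898 and a mean of 1000 by 87, of which 78 were protein coding. The 10 genes with the highest mean held 10.03% ± 2.32 of all TPM (SD, n = 4), the 100 highest held 25.1% ± 2.25 and the 1000 highest 55.2% ± 1.83. Protein-coding genes held 90.6% of TPM (88.2% to 92.3% over the 4 mice), and long intergenic noncoding RNAs held 3.65% (2.03% to 6.30%). Of the 30 genes with the highest mean TPM, 25 were protein coding, 10 lay on the mitochondrial chromosome, and in 22 the highest mouse was less than 1.5 times the lowest.

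Bc1, a small noncoding RNA made by RNA polymerase III in neurons, carried into dendrites and known as a repressor of translation, ranked first. It was at 23768, 23153, 13062 and 56002 TPM in mice 1 to 4. Mouse 4 was the highest and mouse 3 the lowest, 4.29-fold apart, and in the other 11 mice Bc1 lay between 16152 and 94552 TPM. The gene is 168 bases long in GRCm38 (chr7:144914470-144914637, plus strand), and its sequence is shown because it accounts for the top rank and because a run of A lies inside the RNA. It is printed from the reference transcript with the A-rich stretch in capitals, from the start of the first to the end of the last run of 8 or more A. The gene is known as a source of the ID repeats of rodent genomes, and 31.1% of the 50-base windows of Bc1 occurred in transcripts of other genes.

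Bc1: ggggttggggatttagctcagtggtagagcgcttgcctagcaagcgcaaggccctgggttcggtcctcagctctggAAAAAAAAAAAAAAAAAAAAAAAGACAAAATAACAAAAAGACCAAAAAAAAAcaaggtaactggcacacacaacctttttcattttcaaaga

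Division by so short a length raises the TPM of a gene, and genes with under 200 bases of exon held 4.36% of TPM in all but 1.46% without Bc1. Bc1 was no longer among the 30 highest when genes were ranked by CPM, which does not divide by length, and mt-Co1, Camk2a and Meg3 then led.

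**Figure D1:**
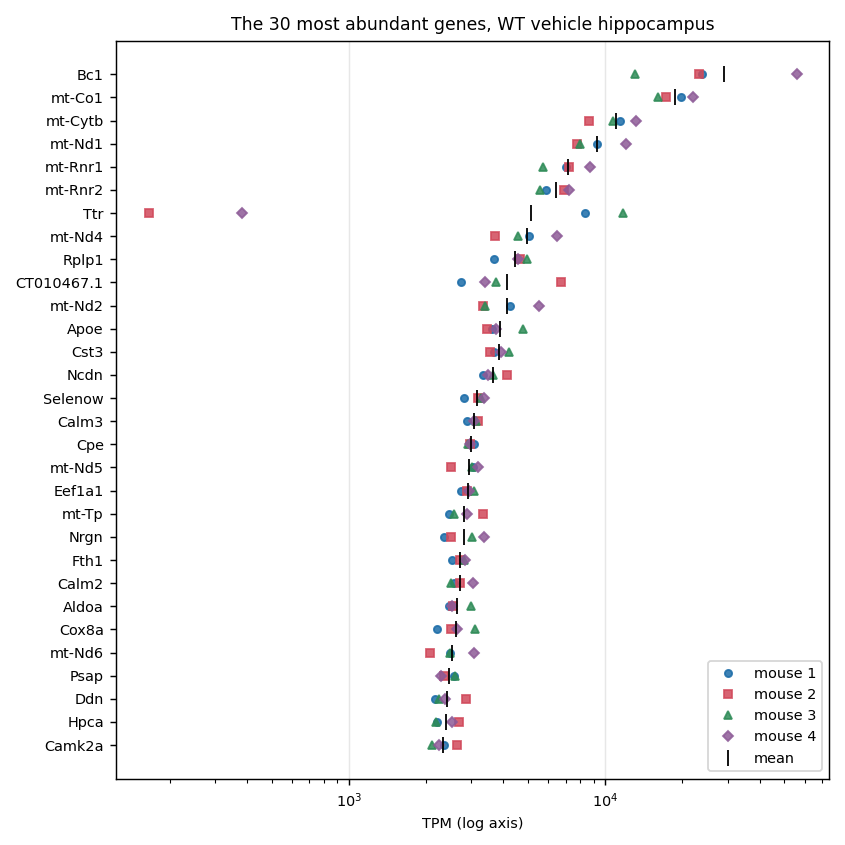
TPM (log axis) in each of the 4 WT vehicle mice for the 30 genes with the highest mean TPM, ordered by rank, each point a mouse. Most genes show 4 points close together, while Ttr spans 166 to 11686 TPM and Bc1 13062 to 56002 TPM.

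Transcripts of the mitochondrial chromosome, which encodes subunits of the respiratory chain, ATP synthase subunits and the RNAs of the mitochondrial ribosome, filled most of the next ranks. The chromosome held 7.02% of TPM (6.24% to 8.45%) and 2.23% of counts. mt-Co1, a subunit of cytochrome c oxidase, ranked second with 19812, 17231, 16086 and 21908 TPM. mt-Cytb, the mitochondrial subunit of complex III, was at 11435, 8635, 10687 and 13220 TPM, and the complex I subunit mt-Nd1 was at 9244, 7766, 7988 and 12101 TPM. mt-Nd2, mt-Nd5 and mt-Nd6, further complex I subunits, had means of 4123, 2934 and 2526 TPM. Mouse 4 was highest for each of these 6 genes, and the 13 mitochondrially encoded protein genes summed to 55404, 45362, 48390 and 65627 TPM. The ribosomal RNAs mt-Rnr1 and mt-Rnr2 together were at 12889, 14096, 11295 and 15910 TPM.

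A block of 6 protein genes on the same chromosome was far lower. mt-Co2, which encodes another core subunit of cytochrome c oxidase, was at 45.0, 22.7, 69.0 and 40.7 TPM, and mt-Co3 was at 31.4, 19.1, 43.8 and 23.4 TPM. The ATP synthase subunits mt-Atp6 and mt-Atp8 had mean levels of 15.9 and 3.46 TPM, and the complex I subunits mt-Nd3 and mt-Nd4l had 26.8 and 5.14 TPM. These 6 genes lie side by side, from chrM:7013 to chrM:10173, between mt-Co1 and mt-Nd4 (mean 4959 TPM, eighth in the ranking), and their values were of the same order in the other 11 mice, where mt-Co2 had a median of 58.6 TPM.

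The reference holds a second copy of this block on chromosome 1, annotated as pseudogenes. Over the aligned bases, mt-Co2 and Gm28661 were identical in 681, mt-Atp6 and Gm10925 in 678, mt-Co3 and Gm28437 in 783, and mt-Nd4l and Gm10222 in 294. All 50-base windows of mt-Co2 occurred in a transcript of another gene, as did 98.0% to 99.9% of those of mt-Atp6, mt-Co3, mt-Nd3 and mt-Nd4l, against 0% for mt-Nd1, mt-Cytb and mt-Nd6. mt-Atp8 also had 0%, since it lies between mt-Co2 and mt-Atp6 and no gene is annotated at the matching place of chromosome 1. The first 120 bases of mt-Co2 (chrM:7013-7132, plus strand, GRCm38) and of its copy (chr1:24615446-24615565, minus strand) show what an aligner would have to tell apart.

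mt-Co2: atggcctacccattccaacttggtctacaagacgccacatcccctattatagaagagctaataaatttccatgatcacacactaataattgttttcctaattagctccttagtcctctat

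Gm28661: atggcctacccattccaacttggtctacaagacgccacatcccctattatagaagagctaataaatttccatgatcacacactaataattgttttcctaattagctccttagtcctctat

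For mt-Nd3 (chrM:9459-9578, plus strand) and Gm28438 (chr1:24613000-24613119, minus strand), 1 of 345 aligned bases differed, and it is the base in capitals.

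mt-Nd3: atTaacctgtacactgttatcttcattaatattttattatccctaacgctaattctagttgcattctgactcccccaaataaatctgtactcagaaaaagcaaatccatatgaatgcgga

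Gm28438: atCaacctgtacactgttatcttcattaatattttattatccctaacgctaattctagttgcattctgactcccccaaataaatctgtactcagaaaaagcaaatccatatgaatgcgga

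The counting command in the file headers names no option for reads that align to several places, and such reads are left out by default. The part of this in the low values of the block was not tested. mt-Co1 and mt-Nd4 also shared 51.1% and 62.2% of their windows with other genes, so that their levels are uncertain as well.

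**Figure D2:**
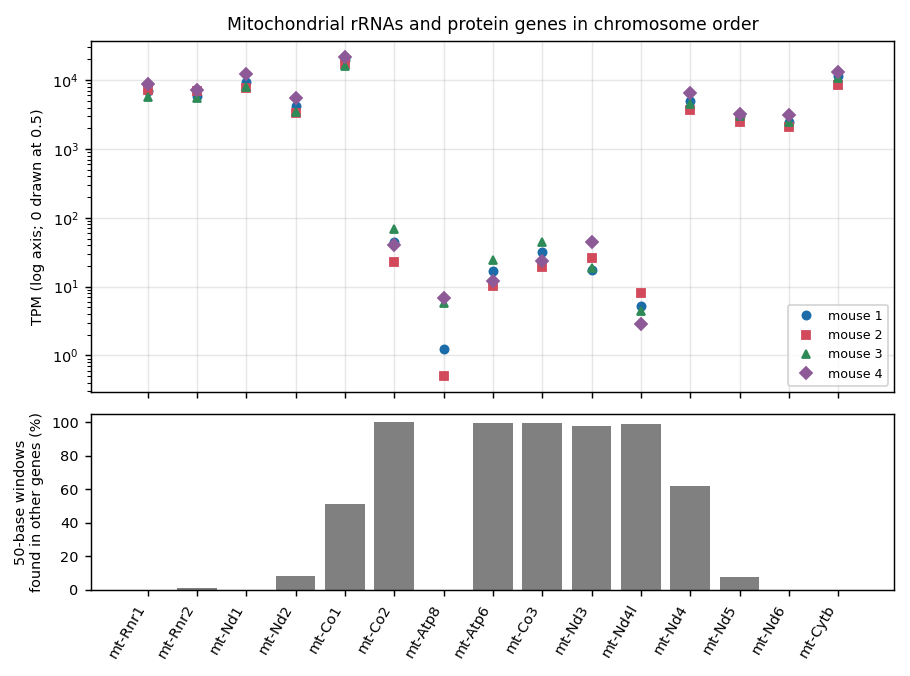
TPM (log axis) of the mitochondrially encoded rRNA and protein genes in their order along the chromosome, each point 1 of the 4 mice, with the percent of 50-base windows shared with another gene below. The 6 genes from mt-Co2 to mt-Nd4l lie below 100 TPM in each mouse, between mt-Co1 and mt-Nd4, which lie above 3726 TPM.

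Among nuclear genes, calcium signalling in neurons stood high in the ranking. Calm2 and Calm3 each encode calmodulin, the protein through which calcium activates kinases and phosphatases at synapses. Calm3 was at 2878, 3195, 3126 and 3085 TPM and Calm2 at 2565, 2717, 2506 and 3045 TPM. Camk2a, a calmodulin-dependent kinase of the postsynapse required for hippocampal long-term potentiation, was at 2341, 2650, 2103 and 2244 TPM. Nrgn, which holds calmodulin at the membrane of dendritic spines, was at 2347, 2491, 3030 and 3377 TPM, and Hpca, a calcium sensor named for its abundance in the hippocampus, at 2203, 2677, 2178 and 2528 TPM. The 8 genes of calmodulin and its targets summed to 13929, 15200, 14314 and 15563 TPM, with a median SD of 0.13 against 0.15 over all 14369 genes.

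Calm2 (chr17:87433412-87446935, minus strand) and Calm3 (chr7:16915379-16924114, minus strand) differ in letters and not in protein. Over 450 coding bases they differed at 78 positions, and the 149 residues they encode were the same. Their first 120 coding bases are shown because such differences bear on whether a read can be assigned to 1 gene. The 18 positions where they differ are in capitals.

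Calm2: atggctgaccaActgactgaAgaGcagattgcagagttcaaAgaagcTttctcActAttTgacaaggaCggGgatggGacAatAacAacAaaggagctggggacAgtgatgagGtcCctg

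Calm3: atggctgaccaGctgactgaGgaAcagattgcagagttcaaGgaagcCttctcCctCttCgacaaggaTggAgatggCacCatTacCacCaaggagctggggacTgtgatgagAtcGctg

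Other neuronal genes of the top 30 were Ncdn, the neurite protein neurochondrin, with 3337, 4127, 3652 and 3495 TPM, and Ddn, whose messenger RNA is carried into dendrites, with 2159, 2874, 2247 and 2368 TPM. Cpe, the carboxypeptidase that trims neuropeptide precursors, was at 3077, 2979, 2917 and 2964 TPM, the narrowest range of these (1.05-fold from lowest to highest).

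Secreted and glial products formed another part of the ranking. Apoe, the lipid carrier of the brain made mainly by astrocytes, was at 3626, 3458, 4755 and 3756 TPM. Cst3, the protease inhibitor cystatin C, was at 3693, 3555, 4223 and 3905 TPM, and Psap, the precursor of the lysosomal saposins, at 2567, 2339, 2603 and 2284 TPM. Mouse 3 was the highest for each of these 3 genes, within 1.37-fold of the lowest mouse for Apoe. Ttr, the thyroxine carrier secreted by the choroid plexus, ranked seventh by its mean of 5144 TPM, yet it was at 8342, 166, 11686 and 383 TPM. Its mean therefore describes no single mouse.

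General cell functions made up the rest. Rplp1, a protein of the ribosomal stalk, was at 3669, 4647, 4938 and 4573 TPM. Protein-coding genes with numbered Rpl, Rps or Rplp symbols together held 3.36% of TPM. This choice by symbol also takes in kinase genes with Rps6k symbols and leaves out Rpsa, so that it is not a list of ribosomal proteins alone. Eef1a1, the elongation factor that brings transfer RNAs to the ribosome, had a mean of 2911 TPM, Fth1, the heavy chain of the iron store ferritin, 2718, and Aldoa, the aldolase of glycolysis, 2632. Selenow, a small selenoprotein, had a mean of 3164 TPM and Cox8a, a nuclear-encoded subunit of cytochrome c oxidase, 2610. The highest mouse was within 1.41-fold of the lowest for each of these 6 genes.

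The 10 most abundant genes that do not code for protein were mostly short or repeated in the genome. After Bc1 and the mitochondrial rRNAs came CT010467.1, an annotated ribosomal RNA (chr17:39846353-39848201, plus strand), with 2743, 6714, 3739 and 3383 TPM, and mt-Tp, the mitochondrial transfer RNA for proline, which is 67 bases long and had a mean of 2813 TPM. Gm23935 and Mir6236, annotated as microRNA genes of 57 and 123 bases, were at 839, 3809, 2753 and 1841 TPM and at 983, 2192, 1652 and 1159 TPM. Mouse 2 was the highest and mouse 1 the lowest for CT010467.1 and for both microRNA genes. The other 3 were Gm10736, Gm15772 and Atp6v0c-ps2. Of the 9 measured genes of the long noncoding RNA list, Meg3, an imprinted RNA of neurons, was the highest with a mean of 923 TPM. By mean TPM it ranked 100 among all genes and Snhg11, also of the list, ranked 108. Both were ahead of Malat1, a nuclear RNA, with 373 TPM (rank 360) and Miat with 285 TPM. The list summed to 3553, 3155, 2709 and 2561 TPM.

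The libraries had the cell-class markers that the labelled tissue should have. In bulk tissue, fewer cells of a class and less RNA per cell cannot be told apart, and a sum of marker TPM depends on which markers were listed, so that sums are compared between mice and not between classes. The neuronal list (Snap25, Syt1, Rbfox3 and 5 others) summed to 4812, 4603, 4259 and 4317 TPM. Glutamatergic markers, among them the vesicular glutamate transporter Slc17a7 with 1085, 1249, 1146 and 1171 TPM, summed to 6354, 7113, 6840 and 7393 TPM. The SD of log2 CPM exceeded 0.5 in 4.79% of all 14369 genes and in none of the 8 neuronal and 6 glutamatergic genes, which is near that share.

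The fields of the hippocampus were each represented. Dentate granule cell markers summed to 321, 356, 346 and 332 TPM, with Prox1, the transcription factor that keeps granule cell identity, at 41.0, 48.7, 34.9 and 35.1 TPM and C1ql2, a secreted protein of mossy fibre synapses, at 148, 160, 187 and 169 TPM. Markers of CA1 summed to 635, 695, 631 and 591 TPM, and Wfs1, an endoplasmic reticulum protein enriched there, was at 187, 188, 176 and 168 TPM, an SD of 0.03. Markers of CA2 summed to 167, 189, 176 and 173 TPM, led by Rgs14, a signalling protein known to limit plasticity in that field, with 111, 130, 116 and 124 TPM. Markers of CA3 summed to 138, 134, 114 and 121 TPM, those of the subiculum to 59.4, 50.8, 46.5 and 45.3 TPM, and the highest mouse was at most 1.31-fold above the lowest in any of these 5 lists. Of these lists' genes 1 had an SD above 0.5, Coch of the CA3 list, with 6.83, 1.601, 3.65 and 3.79 TPM.

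GABAergic markers summed to 2973, 2749, 3866 and 3148 TPM. Gad1, which makes GABA, was at 182, 162, 170 and 154 TPM. The neuropeptide Sst was at 1171, 1085, 1941 and 1221 TPM, so that mouse 3 stood highest by Sst and not by Gad1. Pvalb, the calcium buffer of fast-spiking interneurons, was at 162, 96.1, 194 and 156 TPM. Markers of immature neurons were low, with 5.73, 3.96, 4.16 and 3.87 TPM for Dcx, the microtubule protein of migrating neuroblasts, and 0.124, 0.267, 0.879 and 0.412 TPM for Eomes, a factor of neuronal progenitors. The list summed to 30.1, 32.4, 41.3 and 27.9 TPM, most of it from Neurod1, a transcription factor that granule cells keep in the adult. The 1 gene of this list with an SD above 0.5 was Igfbpl1, at 1.002, 1.25, 5.26 and 1.19 TPM, highest in mouse 3.

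Glial lists differed little between mice. Astrocyte markers summed to 4131, 3665, 3737 and 3580 TPM, with the intermediate filament Gfap at 512, 514, 498 and 566 TPM and the glutamate transporter Slc1a2 at 1009, 625, 621 and 576 TPM, highest in mouse 1. Oligodendrocyte markers, which are the same 8 genes as the myelin protein list, summed to 5144, 4603, 4857 and 4437 TPM, with Mbp, a main protein of compact myelin, at 1897, 1666, 1909 and 1763 TPM. Oligodendrocyte precursor markers summed to 143, 133, 149 and 126 TPM. Microglial markers summed to 664, 772, 744 and 864 TPM, and within them the homeostatic receptors Cx3cr1 (43.6, 46.7, 47.5 and 47.0 TPM) and P2ry12 (29.0, 31.5, 29.6 and 29.4 TPM) varied less than C1qb, a chain of the complement trigger C1q, at 112, 155, 181 and 236 TPM. C1qb was the 1 microglial marker of 9 with an SD above 0.5.

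Vessel lists were also close, with endothelial sums of 240, 254, 233 and 180 TPM and mural sums of 191, 181, 191 and 186 TPM. Meningeal fibroblast markers summed to 24.5, 20.4, 39.7 and 29.8 TPM. Dcn, the matrix proteoglycan decorin, was at 7.08, 7.24, 20.2 and 11.98 TPM, highest in mouse 3.

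In 7 of the 27 class lists the highest mouse was more than 2-fold above the lowest, and none of these was a list of hippocampal neurons or glia. They were the lists of choroid plexus, ependyma, erythroid cells, T and B cells, hypothalamus and pituitary, cerebellum and liver. Choroid plexus markers differed most, at 9449, 341, 12259 and 570 TPM, 36.0-fold from lowest to highest. Without Ttr the other 7 genes still summed to 1107, 175, 573 and 187 TPM, high in mice 1 and 3 and low in mice 2 and 4. The full list ranged from 215 to 18318 TPM over the other 11 mice. Ependymal markers summed to 77.4, 33.6, 122 and 74.0 TPM, with Foxj1, the master regulator of motile cilia, at 31.2, 17.1, 52.2 and 21.3 TPM.

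Blood markers followed another order of mice. Erythroid genes summed to 471, 2617, 554 and 833 TPM, of which Hbb-bs, a beta globin, gave 266, 1619, 308 and 469 TPM, and Alas2, the haem synthesis enzyme of red cell precursors, was at 4.601, 27.0, 4.78 and 7.71 TPM. Mouse 2 was the highest for the sum, though the other 11 mice reached 4501 TPM. T and B cell markers summed to 63.5, 66.2, 77.2 and 146 TPM, and mouse 4 was highest through Igkc, the kappa light chain constant region, at 4.51, 1.39, 6.38 and 72.1 TPM.

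Lists of neighbouring regions gave 3 kinds of result. Neocortical markers summed to 225, 246, 210 and 223 TPM, thalamic markers to 55.4, 56.6, 68.7 and 52.5 TPM, striatal markers to 109, 72.6, 126 and 84.1 TPM and markers of layer 6b and claustrum to 97.8, 90.3, 71.6 and 82.3 TPM. Several of these genes are also made in the hippocampus. The hypothalamus and pituitary list summed to 28.4, 5.69, 7.59 and 5.77 TPM. Prl, the pituitary hormone prolactin, was at 12.1 TPM in mouse 1, and Gh, growth hormone, at 1.79 TPM, while both were at 0 in the other 3 mice. The cerebellar list summed to 53.5, 39.9, 153 and 58.0 TPM, and without Calb2, which hippocampal neurons make too, to 2.13, 1.14, 57.7 and 1.30 TPM. In the other 11 mice the cerebellar sum without Calb2 was at most 4.42 TPM. Liver markers summed to at most 1.49 TPM.

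**Figure D3:**
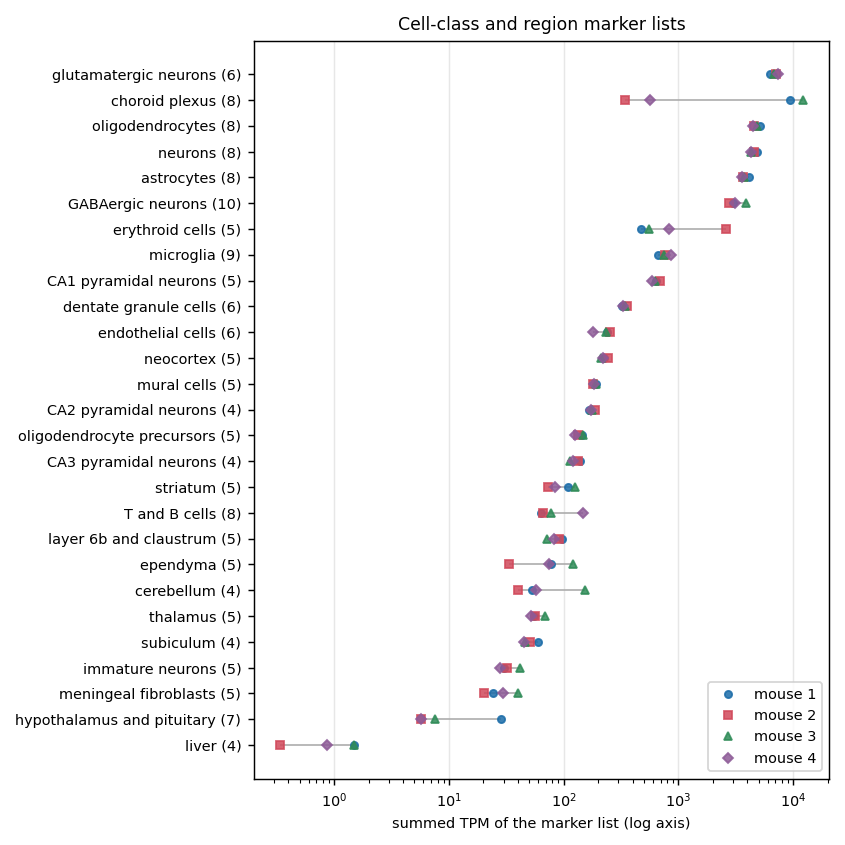
Summed TPM (log axis) of each cell-class marker list in each of the 4 mice, each point a mouse. Lists of hippocampal neurons and glia show points close together, while the choroid plexus list spans 341 to 12259 TPM, the erythroid list 471 to 2617 TPM and the cerebellar list 39.9 to 153 TPM.

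Most lists of cell functions had sums close together. The 13 genes of the synaptic vesicle cycle summed to 9754, 9695, 9458 and 9352 TPM, 1.04-fold from lowest to highest, with Cplx2, a complexin that clamps and triggers release, at 1381, 1578, 1396 and 1379 TPM and Vamp2, the vesicle SNARE, at 960, 989, 998 and 990 TPM. Of these genes 1 had an SD above 0.5, Atp6v0c, a proton pump subunit. Postsynaptic genes summed to 2494, 2656, 2426 and 2293 TPM, with the AMPA receptor subunit Gria1 at 638, 714, 617 and 677 TPM. Tubulins summed to 5505, 5983, 6280 and 5740 TPM.

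The sums for energy and protein metabolism were also close. The 14 glycolytic genes summed to 10918, 11017, 11878 and 10907 TPM, elongation factors to 6582, 6654, 7094 and 6426 TPM, and ubiquitin genes to 3489, 3446, 3822 and 3644 TPM. Chaperones summed to 3902, 3644, 3638 and 4146 TPM. Iron and metal binding genes summed to 4476, 4707, 5134 and 4986 TPM, and apolipoproteins and brain lipid carriers to 8756, 7671, 9925 and 8445 TPM, of which Ptgds, the prostaglandin D synthase of meninges and oligodendrocytes, varied most at 829, 381, 758 and 728 TPM.

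The 12 genes of the amyloid and Alzheimer list, the background against which the APP transgene of this line acts, summed to 12869, 12354, 14864 and 12947 TPM. Mouse App, the amyloid precursor, was at 505, 525, 524 and 441 TPM, an SD of 0.06. Mapt, which encodes tau, was at 307, 307, 284 and 279 TPM. Bace1, the beta-secretase, was at 59.2, 65.1, 53.2 and 51.3 TPM. The median SD of the list was 0.13, against 0.15 for all genes.

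Among the lists that respond to state or handling, the immediate early genes were the least even. Immediate early genes, which neuronal activity induces within minutes, summed to 1028, 881, 1179 and 1164 TPM, with a median SD of 0.38 against 0.15 for all genes, and 4 of 15 had an SD above 0.5, against 4.79% of all genes. Fos was at 22.8, 9.26, 41.4 and 36.6 TPM, lowest in mouse 2, while Egr1 was at 109, 86.3, 99.6 and 112 TPM and Arc, a regulator of AMPA receptor uptake, at 230, 161, 240 and 274 TPM. Glucocorticoid-responsive genes summed to 209, 214, 164 and 161 TPM, and Zbtb16, a transcription factor among them, was at 67.4, 73.0, 39.4 and 35.5 TPM. Mice 1 and 2 were above mice 3 and 4 for this list and for the circadian clock list. The clock list summed to 754, 744, 667 and 646 TPM. Median SDs were 0.21 for the glucocorticoid list and 0.14 for the clock list, against 0.15 for all genes.

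Immune lists had median SDs of 0.34 to 0.37, also above that of all genes. Complement genes summed to 620, 648, 718 and 872 TPM, with C3, the central component, at 10.9, 4.02, 15.1 and 27.0 TPM. MHC and antigen presentation genes summed to 351, 380, 388 and 450 TPM, and interferon-stimulated genes to 170, 128, 205 and 167 TPM. Neuropeptides summed to 2526, 2405, 3380 and 2768 TPM. Mouse 3 was highest for the last list through Sst, while Penk, the enkephalin precursor, was at 84.3, 83.4, 98.8 and 78.9 TPM.

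Most genes varied little. The median SD of log2 CPM was 0.15 over 14369 genes (10th and 90th percentiles 0.07 and 0.37). Counting error alone gives a median of 0.05 if each counted read is independent. Reads were counted with no option for pairs, so that this error would be larger if both mates of a fragment were counted. The common biological coefficient of variation was 16.02%. An SD above 0.5 was found for 688 genes, or 4.79%, and above 1 for 150. The count of 688 depends on the filter and the scale, with 1883 genes at a mean count of 10 or more, 201 at a mean count of 200 or more and 123 on DESeq2's variance-stabilised scale. Among the 1898 genes with a mean TPM of 100 or more, 27 passed 0.5. Pseudogenes passed it in 82 of 276 cases (29.7%) and protein-coding genes in 513 of 13222 (3.88%).

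The 10 least variable genes with a mean TPM of 100 or more included Copg1, Nol6, Ctnnb1, Brd2, Sez6l2, Glud1, Actr1b, Sema7a and Mgll. Ctnnb1, the beta-catenin of adhesion and Wnt signalling, was at 250, 249, 246 and 229 TPM. Glud1, glutamate dehydrogenase, was at 225, 221, 218 and 206 TPM, and Mgll, the lipase that ends 2-AG endocannabinoid signals, at 194, 189, 189 and 177 TPM. Mouse 4, in which the 10 most abundant genes held the largest share of TPM (13.4%), had the lowest TPM for each of the 10, while their order was set by log2 CPM.

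**Figure D4:**
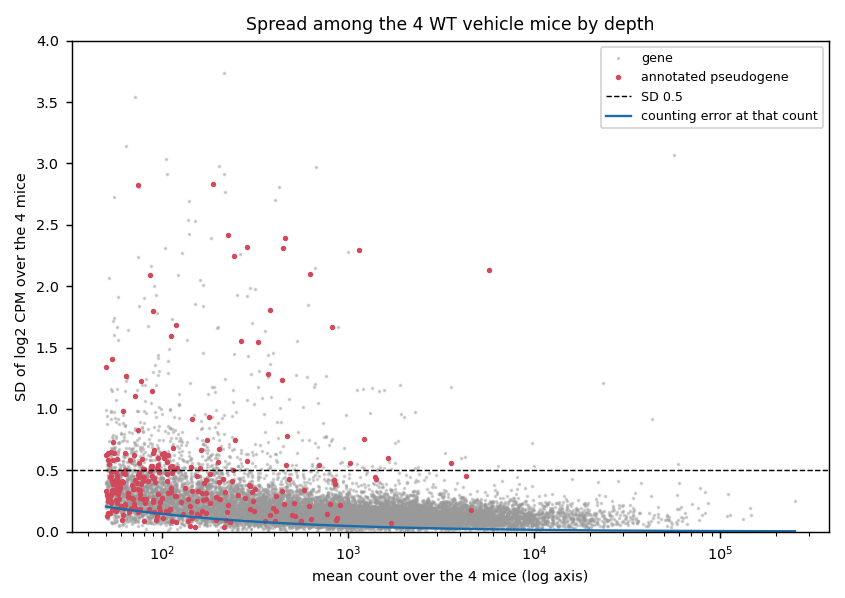
SD of log2 CPM over the 4 WT vehicle mice against the mean count (log axis), each point a gene of the 14369 measured for spread. Annotated pseudogenes are in red, and the dashed line is the SD of 0.5. The blue line is the SD that counting alone gives if each counted read is independent. Most points lie between the blue and the dashed line, near the median of 0.15, and 82 of 276 pseudogenes lie above 0.5.

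The 30 most variable genes were chosen by this SD, so that their spread is a description and no test. They were 17 protein-coding genes, 7 pseudogenes and 6 others, and they fell into a few patterns of mice.

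Genes known from the choroid plexus formed a first pattern. Kcne2, a potassium channel subunit of the choroid plexus, was at 25.1, 0, 24.7 and 0.667 TPM and headed the ranking with an SD of 3.73. Slc4a5, a bicarbonate transporter that takes part in fluid secretion, was at 17.97, 0.255, 9.91 and 0.775 TPM, and Aqp1, the water channel of the apical membrane, at 22.2, 0.843, 15.6 and 1.55 TPM. Cldn2, a claudin of leaky tight junctions, was at 11.7, 0.222, 5.14 and 0.451 TPM. Kcnj13, Tmem72, Mfrp, Steap1, Cdh3, 2900040C04Rik and Ttr had the same order of pairs, mice 1 and 3 above mice 2 and 4. In all, 71 of the 688 genes had both mice 1 and 3 above both mice 2 and 4 by 1 or more log2 CPM. Mice 1 and 3 were the same pair that was high for the whole choroid plexus list, and 8 of its 8 genes had an SD above 0.5, against 4.79% of all genes. The genes of that list, Ttr, Enpp2, Kl, Folr1, Clic6, Kcne2, Otx2 and Sostdc1, are all among the 71, so that the list is no separate support. The 71 also include Fat2, which belongs to the second pattern below, and other pairings of mice were not counted.

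A second pattern was confined to mouse 3 among these 4 mice. Gabra6, the GABA-A receptor subunit of cerebellar granule cells, was at 0.0689, 0, 14.9 and 0 TPM. Cbln3, a cerebellin of the same cells, was at 0.933, 0.228, 21.2 and 0.484 TPM, Fat2, a cadherin of their parallel fibres, at 0.295, 0.0508, 6.64 and 0.0885 TPM, and Cnpy1 at 0.205, 0.0630, 8.94 and 0.146 TPM. Outside the ranking, Pcp2, a Purkinje cell gene of the cerebellar list (1.13, 0.909, 21.6 and 0.820 TPM), was also highest in mouse 3. So were the Purkinje cell gene Car8 (3.89, 1.44, 29.2 and 1.95 TPM) and Zic1, a transcription factor of granule cell precursors (9.21, 5.81, 42.3 and 7.98 TPM). Car8 and Zic1 were named after their values were seen, and in the other 11 mice they reached 3.50 and 20.5 TPM. The highest level of Gabra6 in the other 11 mice was 0.766 TPM. Mouse 3 stood 1 or more log2 CPM above every other mouse for 46 genes and below every other for 22.

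Antibody genes were highest in mouse 4. Ighg2b, the constant region of immunoglobulin G2b, was at 0.128, 0, 0.0974 and 10.04 TPM, highest in mouse 4 and lowest in mouse 2 like Igkc. In the other 11 mice Igkc reached 110 TPM and Ighg2b 1.44 TPM.

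Mouse 2 was the farthest from the median for 252 of the 688 genes, more than any other mouse, and was the lower in 223 of these. It stood 1 or more log2 CPM below every other mouse for 85 genes and above for 11, the latter including the globins Hbb-bs, Hbb-bt and Hba-a1, Alas2 and Vwf, the clotting factor of endothelium (6.04, 11.98, 4.74 and 3.23 TPM), the last named after its values were seen. The alpha globin Hba-a2, at 18.2, 65.3, 81.9 and 71.5 TPM, was not among them. Among the 85 lower genes were Ttr, Kcne2, Slc4a5 and Folr1 of the choroid plexus and Dynlrb2 of the ependymal list. Mouse 2 was also the lowest for the choroid plexus and ependymal sums (341 and 33.6 TPM), so that the 85 repeat the first pattern in part. Mouse 2 had the fewest reads, 21538455, and the part of depth in its lower genes was not tested.

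**Figure D5:**
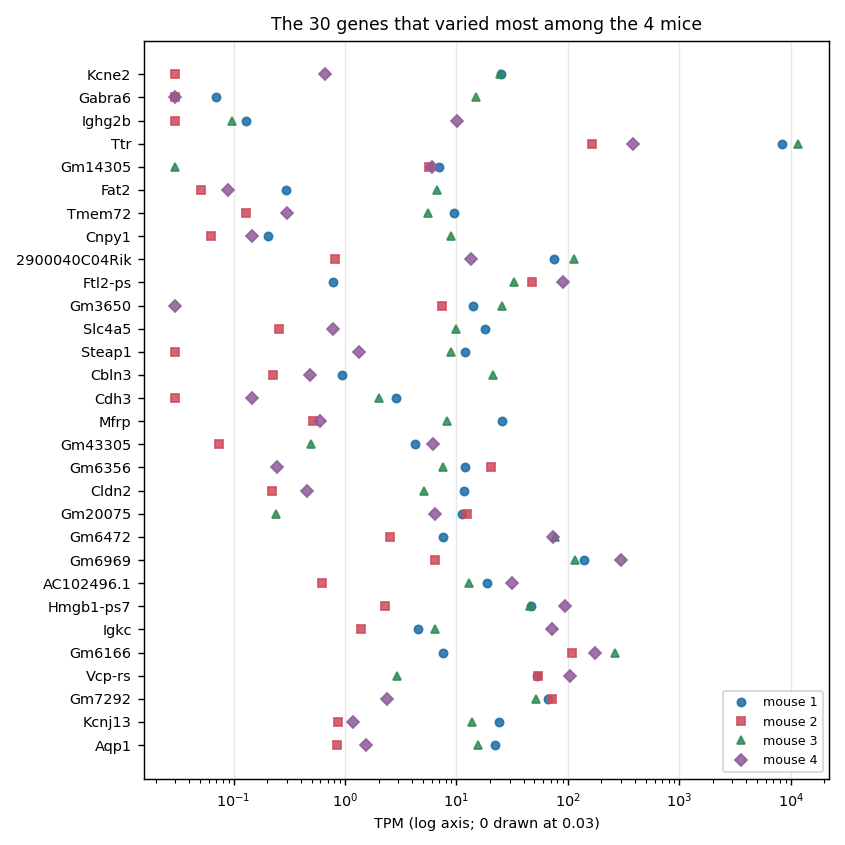
TPM (log axis) in each of the 4 mice for the 30 genes with the largest SD of log2 CPM, each point a mouse. Choroid plexus genes such as Kcne2 and Aqp1 are high in mice 1 and 3, Gabra6, Fat2, Cnpy1 and Cbln3 in mouse 3, and Ighg2b and Igkc in mouse 4.

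Copies of other genes made up much of the rest. Of the 30 genes, 10 shared at least 50% of their 50-base windows with a transcript of another gene and 12 shared none, so that the counts of the former depend on how reads were assigned. Vcp-rs, a processed copy of Vcp, which encodes a segregase of ubiquitinated proteins, was at 31.9, 32.8, 1.86 and 68.8 CPM. Vcp itself was at 175, 176, 225 and 144 CPM, low where the copy was high. For such pairs the SD was taken of log2(CPM + 0.5), a scale other than that of the ranking, so that gene and copy could be added. The sum of Vcp-rs and Vcp was 207, 209, 226 and 213 CPM, with an SD on this scale of 0.06 against 0.26 for the gene and 2.14 for the copy. Gm20075 and Btf3l4, Gm6472 and Rps7, Gm6969 and Cox7a2l, Gm6166 and Fabp5, Gm7292 and 2900097C17Rik, and Gm3650 and Spg11 had summed SDs of 0.08 to 0.16, against 1.48 to 2.13 for the copies on the same scale. In these 6 pairs the partner gene alone had an SD of 0.06 to 0.22 and held most of the sum. The other 3 copies kept a large spread after the gene with most shared windows was added. Summed SDs were 1.59 for Gm14305 and Gm14308, 1.69 for Ftl2-ps and Ftl1-ps1, and 1.88 for Hmgb1-ps7 and Gm15387. These 3 partners were at 0.413 CPM or less in each mouse, so that adding them could hardly change the spread. Hmgb1-ps7, a copy of the chromatin protein gene Hmgb1, was at 46.6, 2.28, 45.3 and 93.5 TPM, lowest in mouse 2. Gm43305 (4.24, 0.0737, 0.494 and 6.19 TPM) and AC102496.1 (18.7, 0.624, 13.01 and 31.6 TPM) were also lowest there, and Gm6356 was lowest in mouse 4 (12.05, 20.6, 7.57 and 0.244 TPM). Hmgb1-ps7 and Hmgb1, a pair named after its values were seen, had a summed SD of 0.16, against 1.86 for the copy. Hmgb1 alone had an SD of 0.10 and held most of the sum.

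The proton pump subunit Atp6v0c, which had stood out in the synaptic vesicle list, has a processed copy, and this pair was named after its values were seen. Atp6v0c was at 220, 121, 275 and 137 CPM and Atp6v0c-ps2 at 70.5, 144, 90.6 and 155 CPM. Mice 2 and 4 were low for the gene and high for the copy, and the sum had an SD of 0.20 against 0.56 for the gene.

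For the light chain of ferritin, the pair was likewise named after its values were seen. Ftl1 was at 75.2, 53.5, 60.003 and 23.3 CPM and its processed copy Ftl2-ps at 0.107, 6.55, 4.75 and 13.9 CPM. The mouse highest for the gene, mouse 1, was the lowest for the copy, and the sum still had an SD of 0.44, against 0.73 for the gene. Ftl1-ps1, a further copy, was at 0.413 CPM or less.

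Some genes that set a mouse apart lay close together, and they are named after their values were seen. Gm14305, Gm14295 and Gm14399, zinc finger genes within 1.68 Mb of chromosome 2, were low in mouse 3, with Gm14305 at 6.92, 5.61, 0 and 5.997 TPM and Gm14295 at 5.35, 4.82, 0.222 and 5.16 TPM. H2-K2, H2-DMb1, H2-T23 and H2-T22, genes of the major histocompatibility complex within 2.07 Mb of chromosome 17, were low in mouse 4, with H2-T22 at 12.9, 25.6, 15.4 and 2.95 TPM and H2-T23 at 9.88, 13.4, 10.3 and 3.41 TPM. The reads of these families can also be shared among members, and neither the part of this nor of sequence differences between the mice and the reference was tested. Farther apart, within 25.5 Mb of chromosome 11, Rpl26, a ribosomal protein gene, was at 96.7, 89.5, 94.0 and 319 TPM and Pttg1, which encodes securin, at 3.60, 3.69, 3.78 and 25.9 TPM, both high in mouse 4.

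The same 30 genes were then measured in mice that had not been used to choose them. Within the 4 WT mice given DHA, 28 of the 30 lay above the 90th percentile of the SD of all genes in that group, within the 4 Tg2576 vehicle mice all 30 did, and within the 3 Tg2576 DHA mice 19 did. In all 3 groups it was 18 of 30. The filter on counts and TPM used the WT vehicle mice only, and some of the 30 were near 0 elsewhere. Gabra6 was at most 0.766 TPM and Fat2 at most 0.315 TPM in the other 11 mice. With SDs of 0.52, 0.81 and 1.41, Gabra6 was still above the 90th percentile in the Tg2576 DHA, Tg2576 vehicle and WT DHA groups. Few reads can set such SDs, so that the numbers of genes above the percentile hold these cases too. Their median SD was 2.71 in the WT vehicle mice, 2.19 and 1.97 in the groups of 4, and 0.51 in the group of 3, where the median of all genes was 0.15, 0.15, 0.21 and 0.19. Ttr ranged from 103 to 17416 TPM over these 11 mice and Kcne2 from 0.975 to 33.2 TPM.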

How the data were processed

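RNA from the hippocampus of 15 mice was sequenced, and the 4 WT vehicle mice were described. The authors deposited 1 count table a mouse. Per the file headers, reads were counted with featureCounts 1.6.0 over exons by gene against GENCODE M25, with no option for strand, pairs or multi-mapping reads. The submitters' processing notes name STAR 2.6.1c, FastQC 0.11.8 and GRCm38. The labels and the study's methods name different library kits, so that strand is unsure, and reads of a gene and an overlapping antisense gene cannot be told apart. All 55401 genes were used, and 55141 were matched to symbols and types of GENCODE M21 (GRCm38).

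Counts were divided by the deposited exon length and scaled to 1000000 per mouse (TPM). The spread was the SD over the 4 mice of log2 CPM from edgeR 4.0.16 (R 4.3.3; TMM factors 0.987 to 1.02, prior count 2), for genes with a mean count of 50 or more and a mean TPM of 1 or more. Depths of 21538455 to 46596489 reads made 1 read worth 0.0215 to 0.0464 CPM. No group was compared and no test was run for a difference between groups. Libraries were compared by chi-square, and single mice by Dixon's ratio. The labels number the mice but do not say more of how they were sampled, so that the spread holds technical and biological differences together.

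Named genes were the 30 highest by mean TPM, the 30 with the largest SD, the 10 with the smallest SD at a mean TPM of 100 or more, the 10 most abundant genes that are not protein coding, and members of 27 marker and 23 function lists. Genes outside this rule are said to have been named after their values were seen. The members and lists were chosen with earlier results of these data known. Windows of 50 bases were compared between all GENCODE transcripts. Sequences came from the reference transcripts. The scripts were checked on simulated counts. Alternatives were other filters, a prior count of 0.5, DESeq2 1.42.0 variance-stabilised values, ranking by CPM, an effective length, leaving out the mitochondrial chromosome, and leaving out each mouse. Some genes that fall under the rule are not reported here.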

Additional observations from a re-analysis of the deposited data

Results flagged for a closer look

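In groups of 4, a mouse is listed here where its gap to the nearest other mouse exceeded the share of the whole range that Dixon's test allows. Of 108 sets of 4 values examined (the named genes of both rankings of 30 and the list sums), 11 did. Chance alone lists about 1 in 20 such sets. The 30 most variable genes were chosen for their spread, so that their 6 cases are descriptions. The other 5 are list sums, but the cerebellar list holds Gabra6 and Cbln3, and the T and B cell list holds Igkc. Those sums therefore repeat cases of the ranking. The lists were also chosen with earlier results of these data known, so that 11 of 108 cannot be weighed against 1 in 20.

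Mouse 3 stood above the other mice with 14.9 TPM of Gabra6 (at most 0.0689 TPM in the others), 6.64 TPM of Fat2, 8.94 TPM of Cnpy1 and 21.2 TPM of Cbln3, and with a cerebellar marker sum of 153 TPM against 39.9 to 58.0 TPM. Its glycolysis sum of 11878 TPM also lay apart, against 10907 to 11017 TPM, a difference of a few percent of the level.

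Mouse 4 stood above the others with 10.04 TPM of Ighg2b (at most 0.128 TPM in the others) and 72.1 TPM of Igkc (at most 6.38 TPM), and with a T and B cell sum of 146 TPM against 63.5 to 77.2 TPM. Mouse 2 had an erythroid sum of 2617 TPM against 471 to 833 TPM. Mouse 1 had a hypothalamus and pituitary sum of 28.4 TPM against 5.69 to 7.59 TPM. No cause of these was tested.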

How the results depend on the processing

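Of 84 values of the summaries under the alternatives, 70 stayed within the spread between mice or within 1.5-fold of the value reported, and 14 moved. For the median SD the limit was the SD of the 4 medians obtained without each mouse. The summaries carry no sign, so that no reversal could be seen. Without the mitochondrial chromosome, the 10, 100 and 1000 most abundant genes held 6.83%, 20.4% and 52.0% of TPM. Ranking by CPM kept 18 of the 30 most abundant genes. A mean count of 10 or more gave a median SD of 0.17 and 1883 genes above 0.5, and a mean count of 200 or more gave 0.13 and 201 genes and kept 15 of the 30 most variable. With variance-stabilised values these were 0.10, 123 genes and 14 of 30. Leaving out each mouse in turn gave a median SD of 0.13 to 0.15 (0.13 without mouse 3). Lists with mice over 2-fold apart were then 4 to 6, in place of 7 (4 without mouse 2), a number that could not rise. For single genes and lists, 710 of 812 values stayed and 102 moved. The cause was not tested, but the filters change which genes enter. Sums of marker TPM do not count cells, spread over 4 mice is itself imprecise, and reads shared between copies limit mt-Co2 and its neighbours and the pseudogenes. No paired analysis was possible because no groups that share replicate numbers were compared.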
